A study of Mus musculus with 6 samples.

Results

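The p38 and JNK kinases and the kinases that activate them were followed in cultured muscle satellite cells (SCs) as a set of 10 genes, taken by gene name from a table of 55416 genes. The set held the 4 p38 isoforms (*Mapk14*, *Mapk11*, *Mapk12* and *Mapk13*), the JNK isoforms *Mapk8* and *Mapk9*, and 4 MAP2Ks (*Map2k3*, *Map2k6*, *Map2k4* and *Map2k7*). Each name matched a row, and all 10 genes passed the filter on low values, a mean over the libraries of 1 TPM or more. SCs were isolated from the muscle of WT mice and of *Ltf*-KO mice, in which lactoferrin was deleted in every tissue by CRISPR-Cas9 in C57/BL6N zygotes. The study describes the sorted cells as negative for Sca1 and CD11b and positive for CD34 and α7-integrin. The antibodies it lists for the sort are against CD31, CD45, Sca1 and α7-integrin. The cells were grown on Matrigel with serum and basic FGF for 4 days with no treatment. There were 3 libraries per genotype. The labels do not say whether these came from separate mice, so p-values measure the spread between these libraries, which may be technical.

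Levels are given in TPM, which divides reads by transcript length and scales each library to one total, so levels of different genes can be compared. The read depth behind these values is unknown. The deleted gene *Ltf* was listed at 0.12, 0.02 and 0.02 TPM in WT libraries 1, 2 and 3 and at 0.02, 0.03 and 0 TPM in *Ltf*-KO libraries 1, 2 and 3. It was near 0 in both genotypes and so does not check the genotype labels in these cultures. In all lists of library values below, the order is that of the replicate numbers.

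The p38 and JNK kinases are MAP kinases that respond to stress, cytokines and cell contact. A MAP3K phosphorylates a MAP2K, and the MAP2K phosphorylates a threonine and a tyrosine in the activation loop of the MAP kinase. In the muscle lineage, p38α takes part in the exit from the cell cycle and in the start of differentiation through MEF2 and E proteins, and p38γ modifies MyoD. JNK phosphorylates Jun and other AP-1 factors. The RNA levels reported here do not measure phosphorylation or kinase activity.

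The identity of the cells was checked with marker lists. All 10 satellite cell and myoblast markers were above 1 TPM, and their highest gene was *Myod1*, a myogenic transcription factor, at 779 TPM over the 6 libraries. *Pax7*, the transcription factor that marks SCs, was between 36.6 and 43.3 TPM. All 14 differentiation markers were also above 1 TPM, with *Mylpf*, a fast myosin light chain, highest at 1041 TPM. Of 6 leukocyte markers, *Ptprc*, *Adgre1*, *Csf1r* and *Itgam* were under 1 TPM and *Cd68* was highest at 3.53 TPM. WT library 1 stood apart in this list, with a sum of 11.5 TPM against 3.59 to 6.01 TPM in the other libraries, and *Lyz2*, a lysozyme gene of myeloid cells, was at 7.22 TPM there and between 0.38 and 2.31 TPM elsewhere. Of 5 endothelial markers *Tek* was under 1 TPM and *Cdh5* was highest at 3.26 TPM. Of 6 fibroblast markers *Lum* was under 1 TPM and *Col3a1* was highest at 96.7 TPM. Of 5 smooth muscle and pericyte markers *Myh11* and *Rgs5* were under 1 TPM and *Acta2* was highest at 492 TPM. Of 4 epithelial markers *Epcam*, *Krt8* and *Cdh1* were under 1 TPM and *Krt18* was highest at 1.11 TPM. Of 6 proliferation markers *Pcna* was highest at 297 TPM. In such bulk libraries, fewer cells of a type and less RNA per cell cannot be told apart.

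Among the MAP2Ks, *Map2k3* and *Map2k6* encode MKK3 and MKK6, which activate p38. *Map2k3* was at 267, 284 and 278 TPM in WT SCs and at 271, 279.7 and 274 TPM in *Ltf*-KO SCs. The libraries of both genotypes overlapped within a narrow range, and 96.1% of the 12956 tested genes had a lower mean. *Map2k6* was at 1.08, 1.26 and 1.46 TPM in WT SCs and at 1.5, 2.17 and 1.41 TPM in *Ltf*-KO SCs. *Ltf*-KO library 2 was the highest and WT library 1 the lowest, and the genotypes overlapped. Within a library *Map2k3* exceeded *Map2k6* by 129-fold to 247-fold.

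The promoters of *Map2k3* and *Map2k6* are shown because these genes had the highest and the lowest level of the 10. The sequences are from RefSeq on GRCm38.p6, 250 bases before to 50 bases after a start, and all 10 genes matched, with 16 starts in all. The processing notes of the submitters name GRCm39, and no coordinate of the expression table was used. For *Map2k6*, which has 3 listed starts, the most upstream is printed. The *Map2k3* window lies at chr11:60931804-60932103 on the plus strand and the *Map2k6* window at chr11:110398852-110399151 on the plus strand, and capitals mark each CG.
Map2k3: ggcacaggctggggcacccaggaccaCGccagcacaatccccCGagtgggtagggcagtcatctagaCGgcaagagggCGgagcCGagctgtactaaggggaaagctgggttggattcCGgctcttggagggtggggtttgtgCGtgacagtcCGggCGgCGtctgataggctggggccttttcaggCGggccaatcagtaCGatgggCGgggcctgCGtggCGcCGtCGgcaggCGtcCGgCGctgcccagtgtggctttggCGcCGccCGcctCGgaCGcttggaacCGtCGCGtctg
Map2k6: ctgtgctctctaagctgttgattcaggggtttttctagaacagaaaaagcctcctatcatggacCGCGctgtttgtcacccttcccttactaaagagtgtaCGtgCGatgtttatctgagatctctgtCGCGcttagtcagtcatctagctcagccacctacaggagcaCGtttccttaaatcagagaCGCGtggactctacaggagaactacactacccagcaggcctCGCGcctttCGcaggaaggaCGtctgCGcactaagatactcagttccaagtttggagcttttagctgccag
The *Map2k3* window held 28 CG and the *Map2k6* window 14, against a median of 7 over all 32851 promoters in the table. The letters GGGCGG, read on both strands, occurred 4 times in the *Map2k3* window and 0 times in this *Map2k6* window, and 35.7% of all promoters held them. Of the most upstream windows of the 10 genes, 8 held them, and their number did not follow the level: it was 0 in *Map2k4*, the gene with the next highest level, and 5 and 4 in *Mapk13* and *Mapk11*, which had low levels. The most upstream window of each of the 10 genes exceeded the median, from 14 CG in *Map2k6* and *Mapk12* to 45 in *Mapk8*. This median also covers genes that were not tested here and starts further downstream. It is therefore not matched to these windows, and a high CG count is not shown to be particular to these genes. Of the 6 windows at starts further downstream, 5 were below the median, with 6 and 4 CG in *Map2k6*, 3 in *Map2k4*, 1 in *Mapk8* and 0 in *Map2k7*, while that of *Mapk14* held 18. The letters GGGCGG occurred once in the next *Map2k6* window. This is a description of the letters only.

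*Map2k4* and *Map2k7* encode MKK4 and MKK7, which activate JNK, and MKK4 can also act on p38. *Map2k4* was at 46.4, 43.3 and 41.5 TPM in WT SCs and at 43.6, 43.8 and 47.1 TPM in *Ltf*-KO SCs. *Map2k7* was at 24.7, 24.9 and 26.8 TPM in WT SCs and at 25.3, 28.3 and 24.3 TPM in *Ltf*-KO SCs. For both genes the genotypes overlapped, and *Map2k4* was above *Map2k7* in each of the 6 libraries, by 1.55-fold to 1.94-fold.

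Of the p38 isoforms, *Mapk14*, which encodes p38α, was the most abundant. It was at 32.2, 32.5 and 37.2 TPM in WT SCs and at 32.2, 29.8 and 32.8 TPM in *Ltf*-KO SCs. WT library 3 was the highest and *Ltf*-KO library 2 the lowest, and the other libraries lay close together. *Mapk11*, which encodes p38β, was at 3.76, 3.96 and 4.51 TPM in WT SCs and at 4.27, 3.96 and 4.13 TPM in *Ltf*-KO SCs. The *Ltf*-KO libraries lay inside the range of the WT libraries.

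*Mapk12* encodes p38γ, an isoform abundant in skeletal muscle. It was at 7.52, 5.88 and 8.43 TPM in WT SCs and at 6.14, 9.26 and 7.24 TPM in *Ltf*-KO SCs. *Mapk13*, which encodes p38δ, was at 5.96, 2.94 and 4.97 TPM in WT SCs and at 3.99, 7.01 and 2.63 TPM in *Ltf*-KO SCs. Both genes were highest in *Ltf*-KO library 2, and WT library 2 was the lowest for *Mapk12* and *Ltf*-KO library 3 for *Mapk13*. The genotypes overlapped for both.

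*Mapk8* and *Mapk9* encode JNK1 and JNK2. *Mapk8* was at 39.98, 37.04 and 38.5 TPM in WT SCs and at 40.7, 38.8 and 44.2 TPM in *Ltf*-KO SCs. *Ltf*-KO library 3 was the highest and WT library 2 the lowest, and the genotypes overlapped. *Mapk9* was at 23, 21.6 and 19.5 TPM in WT SCs and at 20.9, 21.4 and 18.7 TPM in *Ltf*-KO SCs. The lowest value was in *Ltf*-KO library 3, where *Mapk8* was highest, and the genotypes overlapped. The gene of the neuronal isoform JNK3, *Mapk10*, was between 0 and 0.06 TPM, so that *Mapk8* and *Mapk9* carried nearly all JNK RNA.

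**Figure D1:**
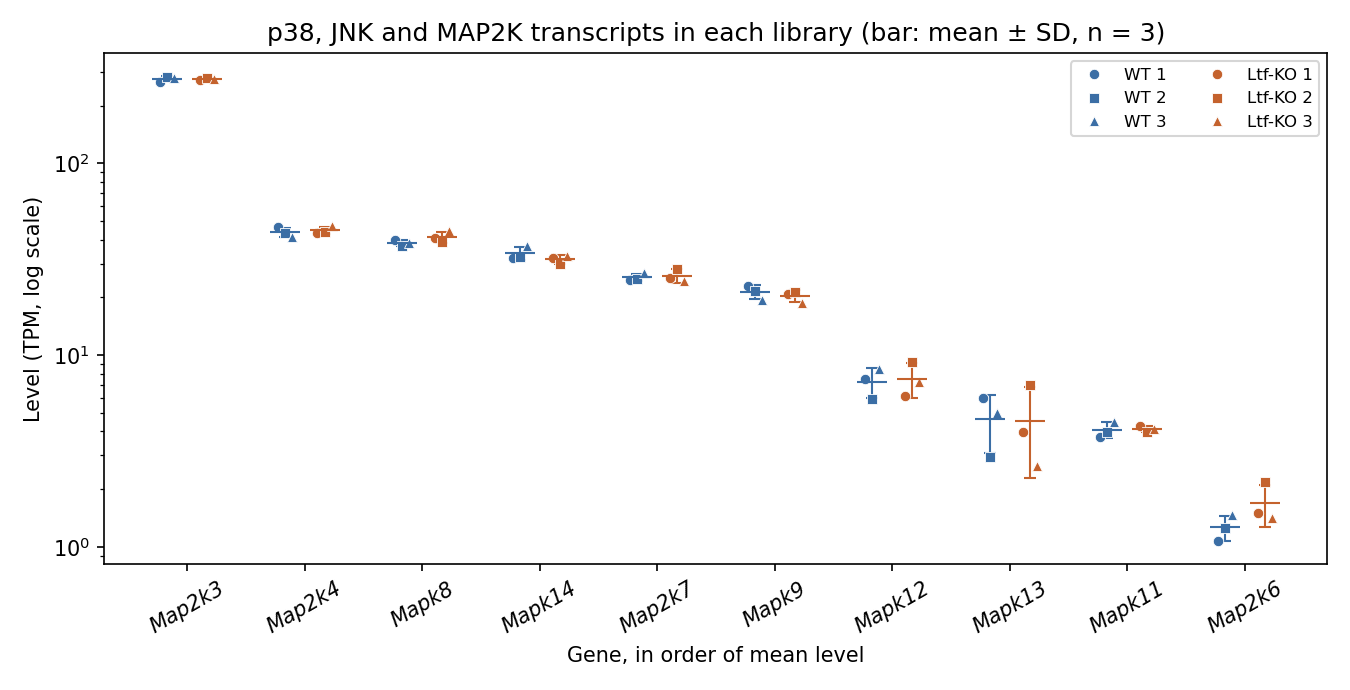
Level of each p38, JNK and MAP2K gene in TPM on a log axis, with 1 point per library, WT in blue and *Ltf*-KO in orange, and the mean ± SD of 3 libraries. *Map2k3* lies above all other genes and *Map2k6* below them, and the genotypes overlap for all 10 genes.

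In order of mean level over the 6 libraries, *Map2k3* (276 TPM) was followed by *Map2k4* (44.3 TPM), *Mapk8* (39.9 TPM), *Mapk14* (32.8 TPM), *Map2k7* (25.7 TPM), *Mapk9* (20.8 TPM), *Mapk12* (7.41 TPM), *Mapk13* (4.58 TPM), *Mapk11* (4.1 TPM) and *Map2k6* (1.48 TPM). The range over the libraries overlapped between *Map2k4* and *Mapk8*, *Mapk8* and *Mapk14*, *Mapk12* and *Mapk13*, and *Mapk13* and *Mapk11*, so these neighbours were not told apart by their ranges. The other neighbours in this order did not overlap. *Mapk13* exceeded *Mapk11* in 3 of the 6 libraries, while each other neighbour kept its place in all 6. For scale, the ERK1 gene *Mapk3* was between 79.2 and 89.03 TPM, and the ERK5 gene *Mapk7* between 13.7 and 16.5 TPM.

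The shares of the isoforms were then computed within each library. The p38 isoforms together were at 49.9 ± 4.92 TPM in WT libraries and 47.8 ± 1.91 TPM in *Ltf*-KO libraries (mean ± SD, n = 3 each). *Mapk14* made up 65.2%, 71.8% and 67.5% of this sum in WT SCs and 69.1%, 59.6% and 70.1% in *Ltf*-KO SCs. Its share was lowest in *Ltf*-KO library 2, where *Mapk12* and *Mapk13* had their highest shares of 18.5% and 14.01%. *Mapk11* held between 7.6% and 9.17%.

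The JNK sum was 59.9 ± 2.72 TPM in WT libraries and 61.6 ± 1.32 TPM in *Ltf*-KO libraries (mean ± SD, n = 3 each). *Mapk8* made up 63.5%, 63.2% and 66.4% of it in WT SCs and 66.1%, 64.5% and 70.3% in *Ltf*-KO SCs, so that JNK1 was the larger part in each library. Of 10 ratios between pairs of these kinase genes, chosen with the values known and not tested, the genotypes did not overlap for 1, against 8.46% of all tested genes by level. This was *Mapk8* to *Mapk14*, at 1.24, 1.14 and 1.04 in WT SCs and 1.26, 1.3 and 1.35 in *Ltf*-KO SCs. The MAP2K sum was 347 ± 7.03 TPM in WT libraries and 347 ± 6.49 TPM in *Ltf*-KO libraries (mean ± SD, n = 3 each). *Map2k3* made up between 78.7% and 80.3% of it, *Map2k4* between 11.9% and 13.7%, *Map2k7* between 6.99% and 7.99%, and *Map2k6* between 0.318% and 0.613%.

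**Figure D2:**
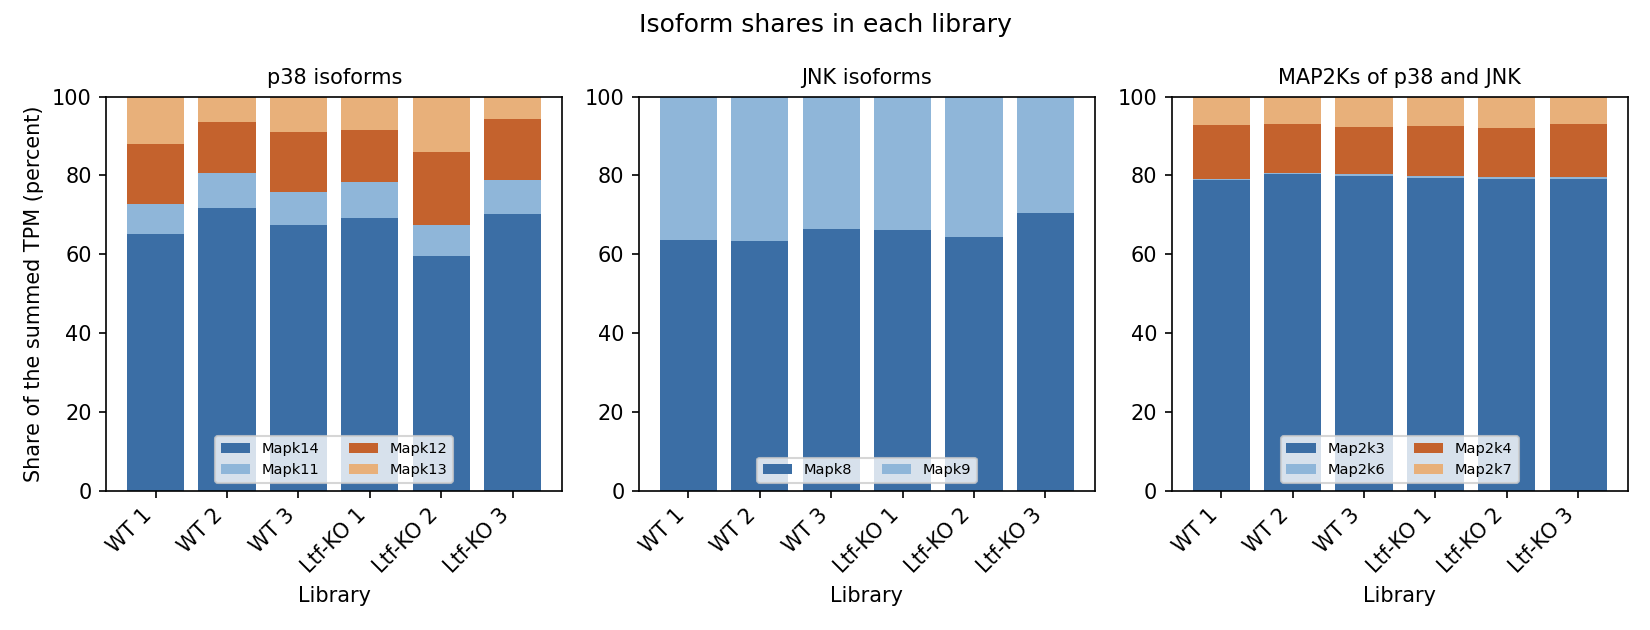
Share of each gene in the summed TPM of the p38 isoforms, the JNK isoforms and the MAP2Ks, in percent, with 1 bar per library. *Mapk14*, *Mapk8* and *Map2k3* are the largest parts in all 6 libraries.

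*Ltf*-KO was compared with WT for all 12956 tested genes by limma on log2(TPM + 1), a scale that understates the change of genes with low TPM. Of the 10 kinase genes, 0 had an adjusted p under 0.05, against 0% of all tested genes. At an unadjusted p under 0.05 there were 0 of the 10 genes, against 490 or 3.78% of all tested genes. The genotypes did not overlap for 0 of the 10 genes, against 8.46% of all tested genes. The log2 fold change was above 0 for 6 of the 10 genes and for 55.7% of all tested genes, and its median was 0.02 over the 10 genes and 0.01 over all tested genes. With quantile normalization 5 of the 10 genes and 49.1% of all tested genes were above 0, and the median of the 10 genes was 0.00045. By median-of-ratios scaling these values were 6 genes, 49.8% and 0.0081. The median of the 10 genes was -0.03 without *Ltf*-KO replicate 2.

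The limits of these comparisons are given by the 95% confidence intervals. *Map2k6* had the log2 fold change farthest from 0, at 0.24 (interval -0.16 to 0.64), from 1.27 ± 0.19 TPM in WT libraries and 1.69 ± 0.415 TPM in *Ltf*-KO libraries (mean ± SD, n = 3 each). This value was 0.12 without *Ltf*-KO replicate 2 and 0.38 with a pseudocount of 0.1. *Mapk14* was at 33.95 ± 2.77 TPM in WT libraries and 31.6 ± 1.61 TPM in *Ltf*-KO libraries (mean ± SD, n = 3 each). Its log2 fold change was -0.10 (interval -0.27 to 0.07). *Mapk8* was at 38.5 ± 1.47 TPM in WT libraries and 41.2 ± 2.73 TPM in *Ltf*-KO libraries (mean ± SD, n = 3 each). Its log2 fold change was 0.09 (interval -0.05 to 0.24). These differences did not pass the test, and the limma adjusted p was 0.999 for each of the 10 genes.

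*Map2k3* had the narrowest interval, -0.09 to 0.08, around a log2 fold change of -0.01. *Mapk13* had the widest, -0.86 to 0.74, so that a large difference in either direction was not told apart from 0 for this gene. The intervals of *Mapk12* (-0.37 to 0.45), *Mapk9* (-0.26 to 0.13), *Mapk11* (-0.21 to 0.24), *Map2k7* (-0.15 to 0.19) and *Map2k4* (-0.10 to 0.17) also held 0. With 1 library left out, the log2 fold change ranged from -0.13 to -0.034 for *Mapk14*, from 0.045 to 0.14 for *Mapk8*, from -0.13 to -0.0094 for *Mapk9* and from 0.12 to 0.32 for *Map2k6*. The value nearest to 0 was found without WT replicate 3 for *Mapk14*, without *Ltf*-KO replicate 3 for *Mapk8* and *Mapk9*, and without *Ltf*-KO replicate 2 for *Map2k6*, and that of *Mapk9* was farthest from 0 without WT replicate 3. The log2 fold changes of the other 6 genes changed sign in at least 1 of these fits. Two-sided exact permutation tests over the libraries gave p between 0.2 and 0.9 for the 10 genes, where 0.1 is the smallest that 3 against 3 libraries allow.

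**Figure D3:**
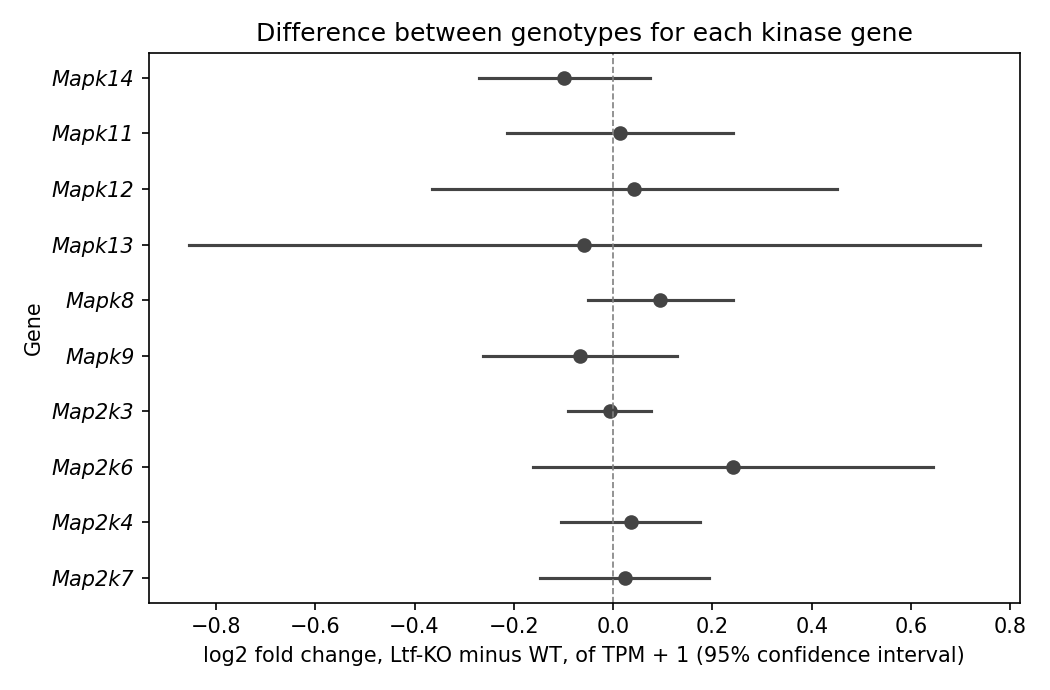
Log2 fold change of each gene, *Ltf*-KO minus WT, on the log2(TPM + 1) scale, with points for the limma estimates and lines for the 95% confidence intervals. All 10 intervals include 0, and that of *Mapk13* is the widest.

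The spread between libraries differed among the 10 genes. The coefficient of variation of *Mapk13* was 33.3% in WT and 49.3% in *Ltf*-KO SCs, and that of *Mapk12* was 17.8% and 20.97%. The median over the tested genes with a mean of 1 to 10 TPM was 14.1% in both genotypes. Averaged over the genotypes, the value of *Mapk13* was above that of 88.2% of these genes, *Mapk12* above 62.6%, *Map2k6* above 63.8% and *Mapk11* above 14.2%. *Map2k3* varied little, at 3.06% and 1.66%, against medians of 3.42% and 3.55% for genes of at least 100 TPM.

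The summed level of the 14 muscle differentiation markers, which include *Myog* and *Mylpf*, also differed among libraries. It was 3648, 4631 and 3340 TPM in WT SCs and 3954, 3421 and 5433 TPM in *Ltf*-KO SCs. It was highest in *Ltf*-KO library 3 and WT library 2, the libraries with the lowest *Mapk13*. The endothelial marker sum was 7.36, 5.68 and 14.2 TPM in WT SCs and 11.5, 13.3 and 5.68 TPM in *Ltf*-KO SCs, and was lowest in the same libraries, but it was highest in WT library 3. The epithelial marker sum was 2.02, 1.48 and 2.3 TPM in WT SCs and 1.51, 2.9 and 0.97 TPM in *Ltf*-KO SCs. It was highest in *Ltf*-KO library 2, as *Mapk13* was, and lowest in *Ltf*-KO library 3 and WT library 2. Its highest gene *Krt18*, a keratin, was at 1.42, 0.86 and 1.22 TPM in WT SCs and at 1.04, 1.66 and 0.44 TPM in *Ltf*-KO SCs. This is the order of the libraries for *Mapk13*, which the other epithelial markers did not follow. *Epcam* was highest in WT library 3 (0.31 TPM). *Krt8* and *Cdh1* were highest in *Ltf*-KO library 2, but lowest in *Ltf*-KO library 1 (0.08 TPM) and WT library 1 (0.22 TPM). The part of these differences in the levels of *Mapk12* and *Mapk13* was not tested.

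**Figure D4:**
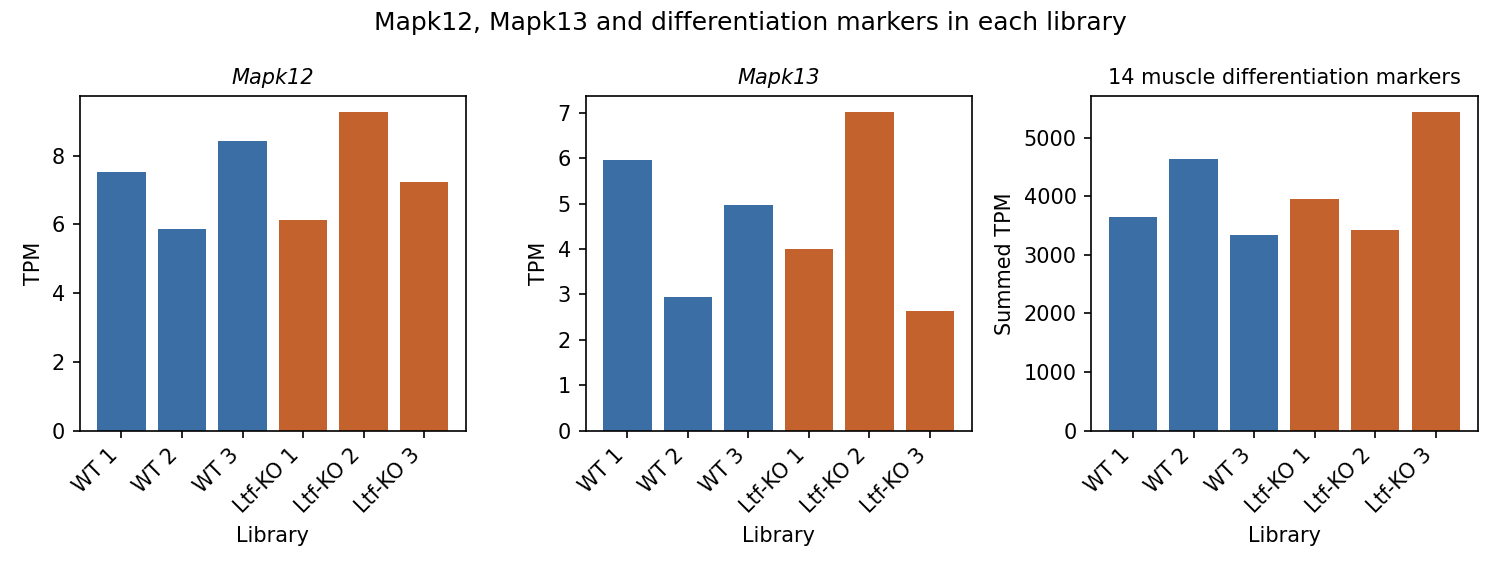
Level of *Mapk12* and *Mapk13* in TPM and summed TPM of 14 muscle differentiation markers, with 1 bar per library, WT in blue and *Ltf*-KO in orange. *Mapk13* is lowest in WT library 2 and *Ltf*-KO library 3, where the marker sum is highest.

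The genes most like each kinase gene over the 6 libraries were found by Pearson's r of log2(TPM + 1), which is a description over few points taken from many genes. For *Mapk12* these were *Slc25a28*, a mitochondrial iron carrier (r = 0.99), and *Pik3c3*, the class III PI3-kinase (r = 0.99). Across the 10 genes, the 2 genes most like each had r between 0.98 and 1.

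The promoters of *Mapk12* and *Mapk13* are shown because these genes varied most among the p38 isoforms, and capitals mark the E-box letters CANNTG, the same on both strands. The *Mapk12* window lies at chr15:89140654-89140953 on the minus strand and the *Mapk13* window at chr17:28769067-28769366 on the plus strand of GRCm38.p6.
Mapk12: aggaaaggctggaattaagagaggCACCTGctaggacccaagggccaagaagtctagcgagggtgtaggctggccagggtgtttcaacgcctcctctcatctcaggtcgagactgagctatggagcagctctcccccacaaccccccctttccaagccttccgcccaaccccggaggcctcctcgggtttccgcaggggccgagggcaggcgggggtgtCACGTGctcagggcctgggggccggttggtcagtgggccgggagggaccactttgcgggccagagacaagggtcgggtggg
Mapk13: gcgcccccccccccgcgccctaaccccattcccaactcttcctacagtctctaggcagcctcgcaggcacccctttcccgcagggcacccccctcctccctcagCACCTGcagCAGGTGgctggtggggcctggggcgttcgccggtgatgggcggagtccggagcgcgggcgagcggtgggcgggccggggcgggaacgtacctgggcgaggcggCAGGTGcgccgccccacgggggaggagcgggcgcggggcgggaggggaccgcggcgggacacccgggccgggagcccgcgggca
The *Mapk12* window held 2 such matches and the *Mapk13* window 3, and 72.3% of all promoters in the table held at least 1. Of the most upstream windows of the 10 genes, 4 held a match. In the RefSeq gene table, *Mapk12* and *Mapk11* neighbour each other on chromosome 15, and *Mapk14* and *Mapk13* on chromosome 17, with 0 protein-coding genes between them in both cases. In the annotation deposited with the values, all 10 genes carried the MAPK signaling pathway and a protein kinase domain.

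The wider pathway was followed with 5 lists of 66 genes, of which 65 were found and 63 were tested. Of these, 0 had an adjusted p under 0.05 and 1 had an unadjusted p under 0.05, against 3.78% of all tested genes. The genotypes did not overlap for 5 of the 63 genes (7.94%), *Map3k4*, *Map3k11*, *Traf6*, *Dusp8* and *Ppm1b*, against 8.46% of all tested genes. The log2 fold change was above 0 for 45 genes (71.4%) and below 0 for 18, with a median of 0.04, and it was above 0 for 55.7% of all tested genes. With quantile normalization 37 of the 63 (58.7%) were above 0, against 49.1% of all tested genes, and with median-of-ratios scaling 39 (61.9%), against 49.8%. The counts above 0 in the single lists stand against the same shares.

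The marker lists also differed in the direction of their log2 fold changes, with 0 markers at an adjusted or an unadjusted p under 0.05. All 14 muscle differentiation markers were above 0, with a median of 0.14, and all 14 with either scaling. This rested on a few libraries. Without *Ltf*-KO replicate 3, 3 of the 14 were above 0, with a median of -0.05. Without WT replicate 3, 8 were above 0, with a median of 0.01. All 5 tested fibroblast markers and all 3 tested smooth muscle and pericyte markers were above 0, also with either scaling. With 1 library left out, 4 or 5 of these fibroblast markers were above 0. For the smooth muscle and pericyte markers the count was then 2 or 3. Of the satellite cell and myoblast markers 6 of 10 were above 0, 5 with either scaling, and 4 to 6 with 1 library left out. Of the endothelial markers 3 of 4 were above 0, and 1 without WT replicate 2 or without *Ltf*-KO replicate 2. Of the proliferation markers 1 of 6 was above 0, with either scaling too. This count was 3 without WT replicate 1 or without *Ltf*-KO replicate 2. It was 0 without WT replicate 3 or without *Ltf*-KO replicate 3. Both tested leukocyte markers and *Krt18*, the tested epithelial marker, were below 0, but *Krt18* was above 0 without *Ltf*-KO replicate 3. The genotypes did not overlap for *Pcna* and *Mcm5*, of 6 proliferation markers, and *Cd68*, of 2 tested leukocyte markers, which were lower in the *Ltf*-KO libraries. There were 0 such genes among the 10 satellite cell and myoblast markers and the 14 differentiation markers. There were also 0 among the tested fibroblast (5), endothelial (4), smooth muscle and pericyte (3), Schwann cell (4) and epithelial (1) markers. Of all tested genes, 8.46% did not overlap. The part of the marker genes in the direction of the wider lists was not tested.

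*Map3k4*, a MAP3K that GADD45 proteins bind and activate, was the gene at an unadjusted p under 0.05. It was at 16.2, 15.7 and 14.6 TPM in WT SCs and at 19.3, 18.9 and 17.2 TPM in *Ltf*-KO SCs. The *Ltf*-KO libraries were all above the WT libraries. Its log2 fold change was 0.24 (interval 0.08 to 0.40), and it did not pass the test over all genes (limma adjusted p = 0.999).

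Upstream, 23 of the 24 MAP3Ks and adaptors were tested, with 13 above 0 and 10 below 0 and a median log2 fold change of 0.03. With quantile normalization 11 of the 23 were above 0, with a median of -0.0036, and by median-of-ratios scaling 13, with a median of 0.02. Their highest gene was *Gadd45g*, an activator of MAP3K4, at 285 TPM in WT and 284 TPM in *Ltf*-KO SCs. Of the scaffolds and the proteins of the Cdon receptor complex, 8 of 9 were tested, with 7 above 0 and a median of 0.02. With quantile normalization or median-of-ratios scaling 4 were above 0. The count was also 4 without WT replicate 1, with a median of 0.0026, and 8 without WT replicate 3, with a median of 0.02. The highest was *Cdc42*, a small GTPase that links the cell adhesion receptor Cdon to p38 in myoblasts, at 303 TPM in WT and 311 TPM in *Ltf*-KO SCs. Of 9 phosphatases, 7 were above 0 with a median of 0.04, and 6 with either scaling. Fits without 1 library gave 5 to 7 above 0, with medians from 0.027 to 0.057. The highest phosphatase was *Ppm1a* at 95.003 TPM in WT and 94.4 TPM in *Ltf*-KO SCs.

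Downstream, 6 of the 7 kinases activated by p38 were tested. All 6 were above 0, with a median log2 fold change of 0.09, and 5 were above 0 with quantile normalization or median-of-ratios scaling. Of all tested genes 55.7% were above 0, and 49.1% and 49.8% with these scalings. Fits without 1 library gave 5 or 6 of these kinases above 0, with medians from 0.055 to 0.14. The highest was *Mapkapk2*, which encodes the p38 substrate kinase MK2, at 48.7 TPM in WT and 50.6 TPM in *Ltf*-KO SCs. Of 17 substrate transcription and chromatin factors, 12 were above 0, with a median of 0.04, and 11 with either scaling. Leaving out 1 library gave 10 to 13 above 0, with medians from 0.022 to 0.036. The highest was *Jun*, the AP-1 subunit phosphorylated by JNK, at 119.9 TPM in WT and 117 TPM in *Ltf*-KO SCs. In each of these 5 lists 0 genes had an adjusted p under 0.05.

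**Figure D5:**
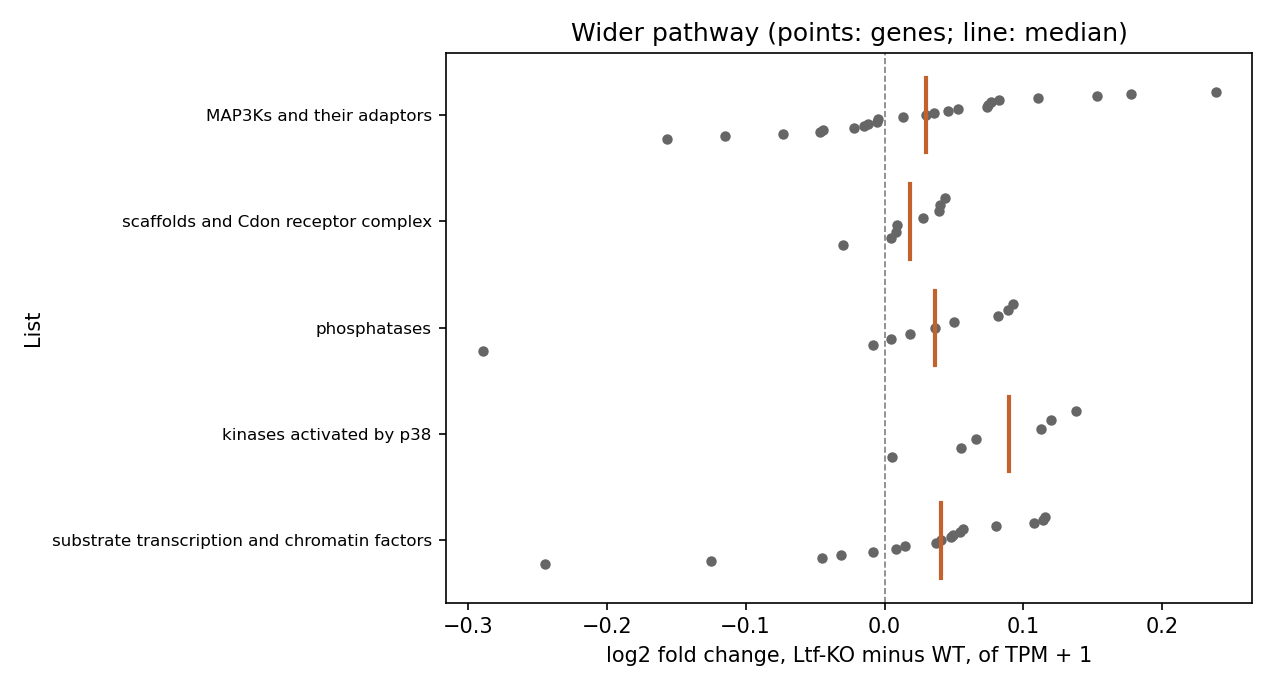
Log2 fold change, *Ltf*-KO minus WT, on the log2(TPM + 1) scale, for the tested genes of the 5 wider lists, with 1 point per gene and a line at the median. The medians lie between 0.02 and 0.09.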

How the data were processed

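RNA sequencing of SCs from WT and *Ltf*-KO mice gave 3 libraries per genotype. The authors deposited TPM values, 1 per gene and library, made by the sequencing company's protocol. The submitters' processing notes name the genome build GRCm39, and the aligner, counting tool and annotation are not given in the sources used here. The unit was taken from the values, which sum to between 993650 and 994356 per library. TPM keeps no depth, so precision was judged from the spread between libraries.

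Genes whose mean over the 6 libraries reached 1 TPM were compared by limma 3.58.1 in R 4.3.3 on log2(TPM + 1), with a variance trend and no covariate, with Benjamini-Hochberg adjustment over all 12956 genes, with a threshold of 0.05. The fit was tested on simulated data. Where a gene name repeated, the row with the highest mean was used. Exact permutation tests used scipy 1.17.1. The kinase genes and gene lists were chosen with earlier results of these data known. Genes named are the 10 kinase genes, genes of the wider lists at an unadjusted p under 0.05, each list's highest gene, genes of other MAP kinases, *Ltf*, and markers that were highest or under 1 TPM. Names outside this rule were chosen after their values were seen. Alternatives were a pseudocount of 0.1, no filter, a mean of at least 10 TPM, quantile normalization, median-of-ratios scaling, no variance trend, the replicate number as a block, and each library left out. Leaving out libraries for the mean levels was added after seeing the data. A comparison of protein sequences was planned and was not done. The values of some listed genes are not reported here.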

Additional observations from a re-analysis of the deposited data

How the results depend on the processing

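The counts of the 10 kinase genes at an adjusted or an unadjusted p under 0.05 were 0 under each of the 13 alternatives run. The count of all genes at an adjusted p under 0.05 was 0 under the 7 alternatives with all libraries, and 0 to 6 with 1 library left out: 0 without WT replicate 1, 6 without WT replicate 2, 1 without WT replicate 3, and 5, 2 and 4 without *Ltf*-KO replicates 1, 2 and 3. Without adjustment the count was 890 with no filter (26553 genes tested) and 281 where the mean had to reach 10 TPM (8072 genes tested, which leaves out *Mapk11*, *Mapk12*, *Mapk13* and *Map2k6*). Of the 490 genes 230 were lower in *Ltf*-KO, against 305 of 508 with quantile normalization and 289 of 502 with median-of-ratios scaling. Same-numbered libraries did not deviate together (correlations -0.041, -0.058 and -0.088), and with the replicate block 0 genes had an adjusted and 380 an unadjusted p under 0.05.

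The median log2 fold change of the 10 genes ranged from -0.029 to 0.036 with 1 library left out. *Mapk11* was at -0.010 with quantile normalization. With 1 library left out, the ranges that crossed 0 were -0.031 to 0.075 for *Mapk11*, -0.098 to 0.164 for *Mapk12*, -0.362 to 0.209 for *Mapk13*, -0.031 to 0.013 for *Map2k3*, -0.0015 to 0.077 for *Map2k4* and -0.038 to 0.068 for *Map2k7*. The cause was not tested.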
